A study of Mus musculus with 60 samples.

Results

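Interleukin 6 (IL-6) and hepatocyte growth factor (HGF) were compared at the earliest hours of the series, 0.5 and 2 h after addition, on 8 of its 60 arrays: 2 arrays per stimulus and hour, chosen by stimulus and hour alone. The cells were primary hepatocytes of male C57BL/6N mice aged 8 to 12 weeks, from 1 animal or a pool of at most 3 per experiment, plated on collagen I and held for 24 h without serum but with 100 nM dexamethasone, a glucocorticoid that every group received. One set then received 40 ng/ml of IL-6 (rhIL-6, the human protein on mouse cells) and the other 40 ng/ml of HGF (rmHGF). Unstimulated cells of the same hours and cells given both factors serve here only to show levels, and the 4 h arrays give the same contrast at a later hour for the named genes. Nothing in the labels ties the arrays of one group to different animals. The p-values below therefore rest on the spread from array to array, and that spread may be technical. The question was which genes of the first wave separate the stimuli.

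IL-6 binds its receptor chain Il6ra and the shared signalling chain gp130 (Il6st), whose Janus kinases phosphorylate the transcription factor STAT3. STAT3 then drives SOCS3, a feedback inhibitor of gp130, and, with C/EBP factors, the acute phase proteins that the liver secretes during inflammation. HGF binds the receptor tyrosine kinase MET, which signals through RAS and the MAP kinase ERK and through PI3 kinase. ERK activates serum response factor and ternary complex factors at immediate early genes such as Fos and the Egr family, and is restrained by dual-specificity phosphatases and Sprouty proteins that it induces itself. Both factors are known for their part in liver regeneration.

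By the spike-in control dap the 8 compared arrays formed 1 labelling class. Its signal was 2.46 to 2.86 higher at its 3′ than at its 5′ probe set (log2). On the unstimulated arrays of the same hours it was 1.18 to 1.33 higher. Levels of unstimulated cells are therefore given as levels only, and no difference from them was tested. Where arrays are said below to lie above, below or near the unstimulated level, stimulus and labelling class cannot be told apart. The hybridisation control bioB differed between the stimuli, and in opposite directions at the 2 hours. At 0.5 h it read 8.79 and 8.70 under HGF against 7.59 and 7.50 under IL-6. At 2 h it read 6.91 and 6.87 against 7.55 and 7.54. Unstimulated arrays read 8.69 and 8.65 at 0.5 h and 8.77 and 8.89 at 2 h. The HGF arrays of 0.5 h lay with them on this control, so bioB did not place the 8 arrays in 1 class. Its part in the results was not tested. Replicate arrays correlated at 0.99723 to 0.99799 over genes. All 12 hepatocyte markers were measured, with gene means of 8.28 to 14.39, whereas of 10 lymphocyte and neutrophil markers on the array 6 stayed below the 40th percentile (4.32 to 4.40) on all 8 arrays. The summed level of macrophage markers lay between 9.43 and 9.58 under HGF and between 9.53 and 9.56 under IL-6 at 0.5 h, and at 2 h between 9.34 and 9.35 against 9.54 and 9.59. Among these, C1qa was the 1 called marker, 0.51 higher under IL-6 at 2 h, and the part of macrophages in the results was not tested. Summed biliary markers ran from 8.41 to 8.43 under HGF and from 8.56 to 8.66 under IL-6 at 0.5 h, and from 8.98 to 9.07 against 8.74 to 8.77 at 2 h. Of the 4 measured, Sox9 was called at 2 h, at -0.50, and the part of biliary cells was not tested. Summed endothelial markers ran from 9.63 to 9.71 under HGF and from 9.57 to 9.61 under IL-6 at 0.5 h, and from 9.60 to 9.64 against 9.72 to 9.74 at 2 h. Summed lymphocyte and neutrophil markers ran from 7.88 to 7.98 and from 7.93 to 8.05 at 0.5 h, and from 7.89 to 7.93 against 8.03 to 8.11 at 2 h. The biliary and the endothelial sums did not overlap at either hour and changed order, and the part of these cells in the results was not tested. Stellate cell sums ran from 8.46 to 8.57 under HGF and from 8.57 to 8.60 under IL-6 at 0.5 h, and overlapped at 2 h. Hepatocyte sums at 2 h ran from 16.7118 to 16.7127 under HGF and from 16.7373 to 16.7416 under IL-6. None of the marker genes was called at 0.5 h, where 0.338% of all genes were. At 2 h 8.51% of all genes were called. Of 12 hepatocyte markers 2 were called at that hour, both higher under IL-6, and 0 of 7 stellate cell, 0 of 10 endothelial and 0 of 4 lymphocyte and neutrophil markers measured. In such bulk samples a change in the number of cells of a type and a change of RNA per cell cannot be told apart.

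At 0.5 h the stimuli differed in few genes, led by 1 very large difference, that of Socs3. Of 14513 genes tested, 49 (0.338%) passed an adjusted p of 0.05 in limma (Benjamini-Hochberg over all genes): 19 (0.131%) stood higher under IL-6 and 30 (0.207%) higher under HGF. Of the 49, 5 (0.0345% of all genes) differed at least 2-fold. These were Socs3, Gadd45g, Cebpd and Zfp36 on the IL-6 side (4 genes, 0.0276%) and Edn1 on the HGF side (1 gene, 0.00689%). The IL-6 side held the feedback genes Socs3 and Cish, the C/EBP gene Cebpd and the fibrinogen genes Fga and Fgb. The MAP kinase feedback gene Dusp1 lay on the HGF side. Of 24 immediate early genes measured, 7 stood higher under HGF and 2 higher under IL-6. The direction split depended on the scaling, with 27 genes higher under IL-6 and 23 higher under HGF after quantile normalization of the arrays. The count rested on few arrays: it was 23 without IL-6 replicate 1, 25 without HGF replicate 2 and 153 without IL-6 replicate 2 of that hour. With each of the 4 arrays left out in turn, 19 of the 49 genes passed every time. These were Angptl4, Bhlhe40, Cebpd, Cish, Gadd45b, Gadd45g, Irf1, Nfkbiz, Pim3, Socs3 and Zfp36 on the IL-6 side, and Btg2, Ccn1, Ddit4, Dusp1, Edn1, Ier2, Ier5 and Jun on the HGF side.

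Feedback inhibitors of gp130 signalling came first. Socs3 read 11.90 and 11.81 on the IL-6 arrays at 0.5 h and 6.87 and 6.79 on the HGF arrays (log2 intensity). Both HGF arrays lay close to the unstimulated level of 6.48 and 6.39, and both arrays with the 2 factors together, at 12.06 and 11.93, lay close to IL-6 alone. The difference was 5.03 (SE 0.09, 32.6-fold, adjusted p = 6.28e-39), and the 2 other probe sets of the gene gave 3.67 and 5.19. Cish, a further member of that family of inhibitors, read 7.35 and 7.49 under IL-6 against 6.84 and 6.95 under HGF, a difference of 0.52 (SE 0.09, adjusted p = 0.000269). Socs1, the inhibitor most often tied to interferon signalling, read 4.99 and 4.87 against 4.49 and 4.67 and did not pass (adjusted p = 0.293). Of the 8 members of the family measured, 2 stood higher under IL-6 at this hour (25%, against 0.131% of all genes).

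Of 10 C/EBP and acute phase transcription factors 2 were called at 0.5 h, and of 22 interferon-stimulated genes 1, Irf1, where 0.338% of all genes were called. Cebpd, a C/EBP factor of the acute phase, read 10.70 and 10.64 under IL-6 and 9.09 and 9.04 under HGF, a difference of 1.60 (SE 0.08, adjusted p = 2.63e-19). Irf1, a factor that drives interferon-type genes, read 8.83 and 8.85 against 8.22 and 8.31, 0.57 higher under IL-6 (SE 0.06, adjusted p = 2.63e-08). The HGF arrays lay below the unstimulated Irf1 level of 8.38 and 8.48, and the IL-6 arrays above it. Nfkbiz, an atypical IκB protein, differed by 0.43 (adjusted p = 0.00137) and the repressor Bhlhe40 by 0.35 (adjusted p = 2.49e-06). Junb, an AP-1 subunit, was 0.39 higher under IL-6 (adjusted p = 0.00179), but did not pass without HGF replicate 1 (adjusted p = 0.118) or IL-6 replicate 2 (0.0656).

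Zfp36 and the Gadd45 genes followed. Zfp36, which encodes tristetraprolin, a protein that speeds decay of AU-rich mRNAs, read 10.30 and 10.43 under IL-6 and 9.19 and 9.30 under HGF. The unstimulated arrays read 8.28 and 8.29, and the cells with both factors were highest at 10.79 and 10.69. The difference between the stimuli was 1.12 (SE 0.08, adjusted p = 4.8e-14). Gadd45g and Gadd45b, stress sensors that bind cell cycle and MAP kinase proteins, were 1.61 (SE 0.13, adjusted p = 3.14e-12) and 0.94 (SE 0.07, adjusted p = 9.22e-13) higher under IL-6. For Gadd45b the HGF arrays, 9.15 and 9.15, lay below the unstimulated 9.41 and 9.45, while the IL-6 arrays, 10.07 and 10.10, lay above. The serine/threonine kinase Pim3 was 0.34 higher (adjusted p = 0.000347).

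The lipoprotein lipase inhibitor Angptl4 read 11.08 and 11.17 under IL-6 and 10.44 and 10.41 under HGF, a difference of 0.70 (SE 0.07, adjusted p = 6.01e-10). The fibrinogen chains Fga and Fgb differed by 0.44 (SE 0.08, adjusted p = 0.000809) and 0.31 (SE 0.07, adjusted p = 0.0178). Without HGF replicate 1 their adjusted p was 0.107 and 0.196, and Fgb also did not pass without HGF replicate 2 (0.125) or IL-6 replicate 1 (0.467). The ephrin Efna1 was 0.62 higher (adjusted p = 2.89e-05, and 0.105 without HGF replicate 2). Efna1 read 6.92 and 7.15 under IL-6 and 6.65 and 6.20 under HGF, where the unstimulated arrays (7.17 and 6.93) lay with IL-6. The remaining genes of that side, named because all genes called at 0.5 h are given, were Elf4, Gcc1, Tifa and Pnrc1, with differences of 0.25 to 0.57, and none of the 4 passed with every array left out in turn.

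On the HGF side Edn1, the precursor of the vasoconstrictor peptide endothelin 1, separated the stimuli most by the probe sets used. Among probe sets not used, 1 of Egr2 gave -1.47 and 1 of Ccn1 gave -1.36 at 0.5 h. Edn1 read 8.52 and 8.43 under HGF and 7.29 and 7.32 under IL-6, a difference of -1.17 (SE 0.09, adjusted p = 1.26e-13). The IL-6 arrays lay below the unstimulated level of 7.50 and 7.58, the HGF arrays above it, and the cells with both factors between, at 8.06 and 8.10. By 2 h all 8 arrays of the 4 conditions lay between 6.71 and 6.999, and the difference was -0.00 (SE 0.09, adjusted p = 0.993).

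The immediate early list holds mainly transcription factor genes, but also others such as the decay factor gene Zfp36. Of its 24 genes measured, 9 were called at 0.5 h (37.5% of the list against 0.338% of all genes tested). Of these, 7 stood higher under HGF and 2 higher under IL-6, Junb and Zfp36. Egr2, a zinc finger factor, read 7.03 and 7.53 under HGF and 6.29 and 6.37 under IL-6, with 4.21 and 4.02 in unstimulated cells, the latter below the 40th percentile of the arrays. The difference was -0.95 (SE 0.17, adjusted p = 0.00102), which did not pass without HGF replicate 2 (0.218) or IL-6 replicate 1 (0.0575). Ier2 read 11.66 and 11.61 under HGF against 10.97 and 10.93 under IL-6, a difference of -0.68 (SE 0.06, adjusted p = 2.56e-11). Fos, the AP-1 subunit, read 11.84 and 11.87 against 11.33 and 11.35 over an unstimulated level of 9.94 and 10.03 (difference -0.52, SE 0.11, adjusted p = 0.00967). Its call was lost without HGF replicate 1 (0.0906), HGF replicate 2 (0.145) or IL-6 replicate 1 (0.176). Jun, the partner of Fos, differed by -0.44 (SE 0.05, adjusted p = 4.12e-07), Ier5 by -0.41, and the antiproliferative Btg2 by -0.36.

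Several early genes did not separate the stimuli at this hour. Egr1 read 13.05 and 13.12 under HGF and 12.92 and 12.83 under IL-6, above 12.14 and 12.17 in unstimulated cells, and the difference of -0.21 did not pass (SE 0.09, adjusted p = 0.384). Ier3, a survival factor gene, read 11.46 and 11.52 under HGF and 11.45 and 11.51 under IL-6, a difference of -0.01 (SE 0.05, adjusted p = 0.954), where unstimulated cells read 10.89 and 10.97. Myc read 10.40 and 10.47 against 10.35 and 10.36 (difference -0.08, SE 0.08, adjusted p = 0.759). For these genes the arrays of the 2 stimuli lay close together, and on the same side of the unstimulated level.

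Beyond the immediate early list, HGF-high genes at 0.5 h included Ccn1, a matrix-associated target of SRF and YAP. It read 12.56 and 12.67 under HGF, 12.07 and 12.21 under IL-6 and 12.13 and 12.21 without stimulus. The difference was -0.48 (SE 0.05, adjusted p = 6.93e-10). Ddit4, an inhibitor of mTORC1, read 8.02 and 8.03 under HGF and 7.52 and 7.49 under IL-6, where the unstimulated arrays (8.00 and 7.94) lay with HGF (difference -0.52, SE 0.08, adjusted p = 2.85e-05). The phosphatase gene Dusp1, which switches MAP kinases off, differed by -0.25 (SE 0.04, adjusted p = 0.000128). Pmaip1, which encodes the BH3-only protein NOXA, differed by -0.79 (adjusted p = 0.000193), and did not pass without HGF replicate 2 (0.0876) or IL-6 replicate 1 (0.119).

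The other HGF-high genes at 0.5 h, all named as part of the complete set, were Adamts1, Angptl8, Atf3, F3, Fgf21, Fzd5, Ifrd1, Kifap3, Nbea, Otud1, Plk2, Preb, Prpf39, Rps6ka3, Rrn3, Slc39a6, Syne2, Tent5a and Tnfaip3. Their differences ran from -0.55 (Fgf21, a liver hormone) to -0.23 (Slc39a6), and none passed with every array left out in turn. For Plk2, Preb and Slc39a6 every other probe set of the gene had the opposite sign at this hour. Over all 49 genes, 28 of 39 other probe sets had the same sign as the one used.

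**Figure D1:**
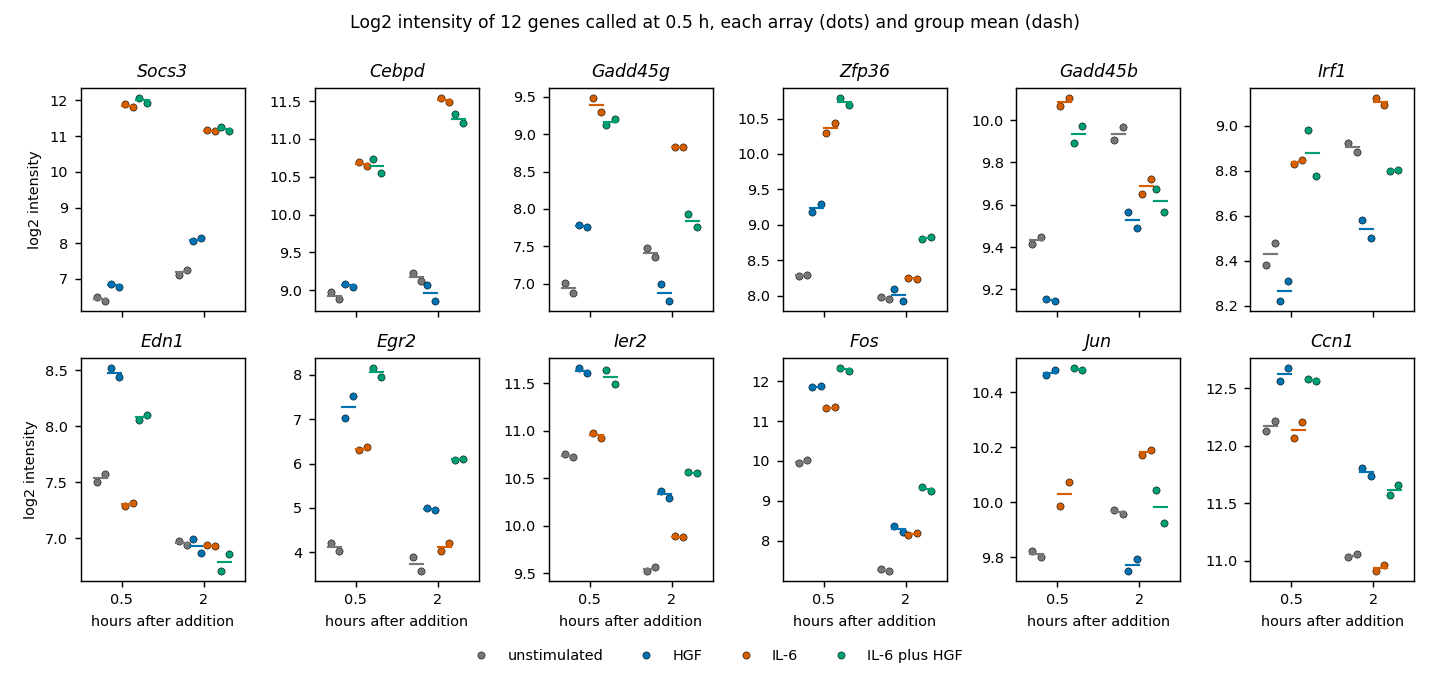
Log2 intensity (vertical axis) of 12 genes called at 0.5 h, by hours after addition (horizontal axis), with dots for single arrays and dashes for group means of unstimulated, HGF, IL-6 and combination cells. In the upper row IL-6 arrays lie above HGF arrays at 0.5 h, for Socs3 at 11.90 and 11.81 against 6.87 and 6.79, and in the lower row below them; Edn1, Zfp36 and Gadd45b come together by 2 h.

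To see what sequence the 2 sides carry, the promoters of the 49 genes were read from RefSeq windows (GRCm38.p6). Each window ran from 250 bases before a start of the gene to 50 after it. A gene with more than 1 start, such as Egr2, has more than 1 window. The letters TTCNNNGAA, the form in which STAT dimers bind, were searched on both strands. They occurred in 7 of the 15 IL-6-high genes with a window (46.7%), in 1 of the 26 HGF-high genes with a window (3.85%, Rrn3) and in 973 of 11639 genes tested (8.36%). The 7 genes were Cish, Fga, Fgb, Irf1, Pnrc1, Socs3 and Zfp36. Angptl4, Bhlhe40, Cebpd and Nfkbiz had no window in the table. Below are those STAT elements that lie before the start, in capitals, with 40 flanking bases where the window holds them, each read in the direction of its gene.
Socs3 (chr11:117969472-117969560, minus strand): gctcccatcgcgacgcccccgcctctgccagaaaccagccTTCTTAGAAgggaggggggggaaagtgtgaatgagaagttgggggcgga
Irf1 (chr11:53769884-53769972, plus strand): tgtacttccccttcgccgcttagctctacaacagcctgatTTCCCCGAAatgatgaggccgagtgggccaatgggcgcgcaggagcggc
Zfp36 (chr7:28379229-28379285, minus strand): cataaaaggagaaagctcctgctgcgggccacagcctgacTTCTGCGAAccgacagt
Fga (chr3:83025903-83025967, plus strand): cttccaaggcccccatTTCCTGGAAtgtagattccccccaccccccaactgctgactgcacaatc
Fgb (chr3:83049977-83050065, minus strand): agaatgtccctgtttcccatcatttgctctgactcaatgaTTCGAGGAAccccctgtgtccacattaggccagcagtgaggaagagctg
Pnrc1 (chr4:33248870-33248958, minus strand): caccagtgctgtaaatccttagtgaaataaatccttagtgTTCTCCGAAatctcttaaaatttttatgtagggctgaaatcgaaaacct

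Counted from the gene's start, the elements began at -154 in Socs3, -90 in Irf1, -17 in Zfp36, -234 in Fga, -162 in Fgb and -131 in Pnrc1. A match describes letters in a window and not a bound site. On the HGF side the cAMP response element TGACGTCA was found in 3 of 26 genes with a window (11.5%, against 3.19% of genes tested). These were Btg2, Dusp1 and Plk2. On the IL-6 side it was found in 0 of the 15. The CArG box, the serum response factor motif, was found in 1 of 26 HGF-high genes (Egr2) and 1 of 15 IL-6-high genes (Zfp36), against 1.6% of genes tested. The EGR element GCGNGGGCG, which can overlap other GC-rich letters, was present in 6 of 15 and 3 of 26 genes (40% and 11.5%, against 11.3%), and the TPA response element TGANTCA in 2 of 15 and 2 of 26 (13.3% and 7.69%, against 6.87%). Examples from the HGF side show a CArG box of Egr2, from 1 of its windows, and the cAMP response elements of Dusp1 and Btg2 in capitals.
Egr2 (chr10:67537757-67537846, plus strand): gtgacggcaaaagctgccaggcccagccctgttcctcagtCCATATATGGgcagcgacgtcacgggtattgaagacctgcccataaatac
Dusp1 (chr17:26508568-26508655, minus strand): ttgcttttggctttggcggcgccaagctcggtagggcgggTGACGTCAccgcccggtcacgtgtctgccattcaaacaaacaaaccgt
Btg2 (chr1:134079274-134079361, minus strand): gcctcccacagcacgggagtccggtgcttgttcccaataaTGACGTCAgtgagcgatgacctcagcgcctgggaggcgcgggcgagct

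By 2 h more genes were called. Acute phase proteins (13 of 28) and interferon-stimulated genes (11 of 22) gave calls higher under IL-6. So did C/EBP and acute phase transcription factors (5 of 10). MAP kinase feedback inhibitors (10 of 19) and genes of the immediate early list (8 of 24) gave calls higher under HGF. In limma 1235 of 14513 genes (8.51%) passed, 390 (2.69%) higher under IL-6 and 845 (5.82%) higher under HGF. At least 2-fold differences were found for 36 genes (0.248%), 20 on the IL-6 side and 16 on the HGF side. The excess on the HGF side shrank after quantile normalization, which gave 520 against 573 genes. The count was 638 without HGF replicate 2, 749 without IL-6 replicate 1, 721 without IL-6 replicate 2 and 873 without HGF replicate 1, and 430 of the genes passed each time.

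**Figure D2:**
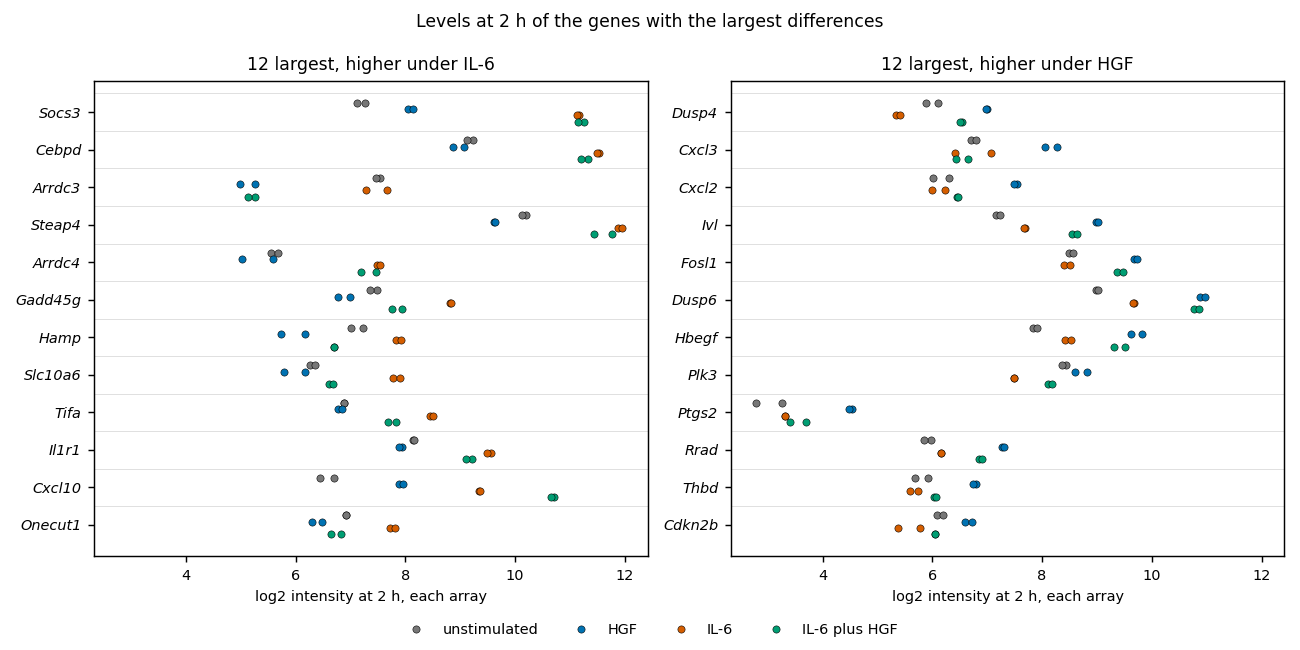
Log2 intensity at 2 h (horizontal axis) on each array for the 12 largest differences in each direction, genes in rows, coloured by unstimulated, HGF, IL-6 and combination cells. The left panel shows genes higher under IL-6, with Socs3 at 11.17 and 11.14 against 8.06 and 8.15, and the right panel genes higher under HGF, with Dusp4 at 7.0 and 6.98 against 5.35 and 5.41.

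Components of the IL-6 receptor and the STAT pathway differed in both directions at 2 h. Of 16 measured, 4 stood higher under IL-6 and 2 lower (6 called, 37.5%, against 8.51% of all genes). Il6ra itself was lower: 7.44 and 7.40 under IL-6 against 8.04 and 8.03 under HGF, a difference of -0.62 (SE 0.08, adjusted p = 5.47e-08). The unstimulated arrays, 7.56 and 7.75, lay between, and the cells with both factors, 8.05 and 8.09, lay with HGF. Osmr, the receptor chain for oncostatin M that pairs with gp130, read 9.67 and 9.63 under IL-6 and 8.84 and 8.94 under HGF (difference 0.76, SE 0.08, adjusted p = 3.39e-10). The other probe sets of Osmr gave -0.06 and 0.41. Stat3 was 0.32 higher (SE 0.07, adjusted p = 0.000595), whereas at 0.5 h its arrays read 9.10 and 9.10 under IL-6 and 9.12 and 9.17 under HGF. Stat2 was 0.62 higher (adjusted p = 0.000333, and 0.0648 without HGF replicate 2). Il6st differed by 0.14 (SE 0.05, adjusted p = 0.0482) and did not pass without HGF replicate 2 (0.459), IL-6 replicate 1 (0.381) or IL-6 replicate 2 (0.0606). Met, the HGF receptor, read 10.87 and 10.91 under HGF and 10.75 and 10.77 under IL-6 and did not pass (adjusted p = 0.119).

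Socs3 and Cish kept their lead under IL-6 at 2 h. Socs3 read 11.17 and 11.14 under IL-6, and 8.06 and 8.15 under HGF against 7.11 and 7.26 in unstimulated cells. Its difference of 3.05 (SE 0.09, 8.29-fold, adjusted p = 1.6e-29) was smaller than at 0.5 h, by 1.98 on the log2 scale (SE 0.13, adjusted p = 1.2e-15). Cish read 8.45 and 8.53 against 7.78 and 7.89, with 6.82 and 6.89 in unstimulated cells and 8.95 and 8.80 with both factors (difference 0.66, SE 0.09, adjusted p = 2.38e-07). Socs1, at 4.89 and 4.93 against 4.69 and 4.73, again did not pass (adjusted p = 0.411).

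The difference changed between the hours for 6 of 28 acute phase genes, all rising (21.4%, against 1.12% of all genes rising). For the other 22 the change did not pass. Of 28 positive acute phase proteins measured, 13 stood higher under IL-6 and 1 lower (14 called, 50%, against 8.51% of all genes), with a median difference of 0.15 against -0.01 over all genes. Steap4, a metalloreductase, read 11.89 and 11.96 under IL-6, 9.62 and 9.63 under HGF and 10.20 and 10.13 without stimulus (difference 2.29, SE 0.11, adjusted p = 5.73e-21). Hamp, which encodes the iron hormone hepcidin, read 7.82 and 7.92 under IL-6, 6.18 and 5.73 under HGF and 7.01 and 7.23 without stimulus. The cells with both factors stood at 6.70 and 6.70, so the HGF arrays and the combination arrays lay below the unstimulated level and the IL-6 arrays above it. The difference was 1.92 (SE 0.16, adjusted p = 6.3e-13), and a near-identical gene, Hamp2, can share its signal. Fga read 12.76 and 12.80 against 11.60 and 11.62 (difference 1.17, SE 0.08, adjusted p = 8.56e-16), and Fgg and Fgb were 0.84 and 0.70 higher. Not all acute phase genes took part: the rest of the list, 14 genes, did not pass at 2 h.

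The promoters of Steap4 and Hamp also held a STAT element, beginning at -116 and -97 from the start and shown here in capitals because both genes are among the largest differences of this hour.
Steap4 (chr5:7960316-7960404, plus strand): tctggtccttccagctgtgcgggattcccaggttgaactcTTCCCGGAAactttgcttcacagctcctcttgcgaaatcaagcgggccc
Hamp (chr7:30944078-30944166, minus strand): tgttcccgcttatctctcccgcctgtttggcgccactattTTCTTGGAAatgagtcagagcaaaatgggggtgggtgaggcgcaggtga

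Over all genes higher under IL-6 at 2 h the share with the element was 38 of 296 genes with a window (12.8%). Over genes higher under HGF it was 58 of 670 (8.66%), beside 8.36% of genes tested. Among the genes at least 2-fold higher under IL-6 it was 4 of 17 (23.5%).

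Of 10 C/EBP and acute phase transcription factors measured, 5 stood higher under IL-6 and 0 lower at 2 h, where 2.69% of all genes stood higher and 5.82% lower. Cebpd reached 11.54 and 11.49 under IL-6, while HGF arrays, at 9.07 and 8.86, read close to the unstimulated 9.23 and 9.13. Its difference of 2.55 (SE 0.08, 5.84-fold, adjusted p = 1.37e-27) was 0.94 larger than at 0.5 h (SE 0.12, adjusted p = 2.08e-07). A second probe set of Cebpd gave 0.82 at 2 h and 0.64 at 0.5 h. The IκB family member Bcl3 was 0.75 higher under IL-6 (SE 0.06, adjusted p = 3.15e-13), the oxygen-response factor Hif1a 0.32 (adjusted p = 9.62e-06) and Cebpb 0.23 (SE 0.04, adjusted p = 6.2e-05). None of the 3 passed at 0.5 h.

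Of 22 interferon-stimulated and antigen presentation genes measured, 11 stood higher under IL-6 at 2 h (against 2.69% of all genes), 0 stood lower and 11 did not pass, with a median difference of 0.24. Iigp1, an interferon-inducible GTPase, read 12.35 and 12.37 under IL-6, 10.98 and 11.04 under HGF and 11.04 and 11.07 without stimulus (difference 1.35, SE 0.09, adjusted p = 1.75e-15). The IL-6 arrays and the HGF arrays did not overlap, which held for all 1235 genes called at 2 h. The related GTPase Igtp was 0.66 higher (SE 0.10, adjusted p = 2.04e-06) and the peptide transporter Tap1 0.66 (SE 0.09, adjusted p = 2.56e-07), although other probe sets of Tap1 gave -0.16 to 0.27. Irf1 differed by 0.57 (SE 0.06, adjusted p = 4.16e-09), the same size as at 0.5 h. At 0.5 h Irf1 was the 1 called gene of the list.

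Of 18 chemokines measured, 2 stood higher under IL-6 and 5 lower at 2 h (38.9% called, against 8.51% of all genes). Cxcl10, an interferon-inducible ligand of CXCR3, read 9.35 and 9.37 under IL-6 and 7.88 and 7.95 under HGF, above 6.45 and 6.70 in unstimulated cells, and the cells with both factors were highest at 10.72 and 10.66. The difference at 2 h was 1.44 (SE 0.15, adjusted p = 5.06e-10). At 4 h it had turned over: 6.79 and 6.92 under IL-6 against 8.34 and 8.27 under HGF, a difference of -1.45 (SE 0.15, adjusted p = 2.12e-10). The CXCR2 ligands Cxcl2 and Cxcl3 went the other way at 2 h. Cxcl2 read 7.55 and 7.49 under HGF and 6.00 and 6.23 under IL-6, where unstimulated cells read 6.01 and 6.30 (difference -1.40, SE 0.19, adjusted p = 1.9e-07). Cxcl3 read 8.06 and 8.27 against 6.42 and 7.07 (difference -1.42, SE 0.25, adjusted p = 4.37e-05). Ccl2, a monocyte attractant, read 11.79 and 11.76 under HGF and 10.83 and 11.09 under IL-6, the IL-6 arrays lying below the unstimulated 11.79 and 11.88 (difference -0.81, SE 0.10, adjusted p = 5.85e-08).

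NF-kB factors, their feedback genes and mRNA decay genes were divided, with 5 of 21 higher under IL-6 and 5 lower (47.6% called, against 8.51% of all genes). Birc2, a ubiquitin ligase of the TNF receptor complex, read 9.82 and 10.03 under IL-6, 9.24 and 9.21 under HGF and 9.95 and 10.00 without stimulus (difference 0.70, SE 0.06, adjusted p = 2.7e-12). Icam1, an adhesion molecule, was 0.49 higher (adjusted p = 1.09e-07), and Nfkbiz 0.54 (adjusted p = 1.77e-06). The decay factor Zfp36l2 was lower under IL-6 by 0.51 (SE 0.06, adjusted p = 3.28e-08) and the deubiquitinase gene Tnfaip3 by 0.37 (adjusted p = 4.88e-05). The other probe sets of Zfp36l2 gave -0.15 and 0.14. Il1r1, the interleukin 1 receptor, read 9.56 and 9.49 against 7.94 and 7.88 (difference 1.62, SE 0.11, adjusted p = 6.35e-16), while a second probe set of that gene gave 0.05. Tifa, an adaptor of TRAF6, read 8.45 and 8.50 against 6.77 and 6.85 (difference 1.67, SE 0.07, adjusted p = 9.58e-23).

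MAP kinase feedback inhibitors stood lower under IL-6 throughout the calls at 2 h: 10 of 19 measured were called, all higher under HGF (52.6% against 5.82% of all genes in that direction), with a median difference of -0.23. After quantile normalization it was 9 of 19. Dusp4, a nuclear phosphatase of ERK, read 7.0 and 6.98 under HGF, 5.35 and 5.41 under IL-6 and 5.88 and 6.10 without stimulus (difference -1.61, SE 0.13, 3.05-fold, adjusted p = 1.08e-13). The IL-6 arrays lay below the unstimulated ones and the HGF arrays above. Dusp6, a cytoplasmic ERK phosphatase, read 10.88 and 10.96 under HGF, 9.68 and 9.66 under IL-6 and 8.99 and 9.02 without stimulus (difference -1.25, SE 0.07, adjusted p = 5.56e-19). Phlda1 differed by -0.80 (SE 0.05, adjusted p = 1.01e-15). The Sprouty gene Spry4 differed by -0.57 (SE 0.16, adjusted p = 0.0206). Its call was lost without HGF replicate 2 (difference -0.43) or IL-6 replicate 2 (difference -0.41). The 3 other probe sets of Spry4 gave -0.005 to 0.16. At 0.5 h only Dusp1 of this list was called.

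Genes of the immediate early list remained mostly on the HGF side at 2 h, but led by other members than at 0.5 h. Of 24 measured, 8 stood higher under HGF (against 5.82% of all genes) and 2 higher under IL-6 (against 2.69%). After quantile normalization it was 8 and 3. Fosl1, which encodes the AP-1 subunit FRA1, read 9.68 and 9.74 under HGF, 8.39 and 8.50 under IL-6 and 8.49 and 8.57 without stimulus (difference -1.26, SE 0.09, adjusted p = 1.94e-15). Maff, a small MAF factor, differed by -0.65 (SE 0.05, adjusted p = 5.33e-13). Egr1, which had not passed at 0.5 h, read 11.20 and 11.31 under HGF and 10.51 and 10.69 under IL-6 (difference -0.65, SE 0.09, adjusted p = 5.52e-07). Unstimulated cells read 8.82 and 9.17, and the cells with both factors 12.25 and 12.20, higher than with either alone. Egr2 read 5.003 and 4.958 under HGF and 4.02 and 4.20 under IL-6, the latter below the 40th percentile of the arrays, with a fitted difference of -0.87 (SE 0.17, adjusted p = 0.000311). Fos read 8.37 and 8.22 under HGF and 8.15 and 8.19 under IL-6 and no longer passed (adjusted p = 0.559).

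EGF-family ligands and receptors were called in 4 of 9 cases (44.4%, against 8.51% of all genes), 3 higher under HGF and 1 higher under IL-6. After quantile normalization it was 2 and 2. Hbegf, a ligand of EGFR, read 9.81 and 9.62 under HGF, 8.42 and 8.53 under IL-6 and 7.83 and 7.91 without stimulus (difference -1.24, SE 0.10, adjusted p = 3.32e-13). Nrg1 differed by -0.57 (adjusted p = 0.00183, and 0.0821 without HGF replicate 2). The receptor Erbb3 lay on the other side: 9.79 and 9.89 under IL-6 against 9.31 and 9.39 under HGF (difference 0.49, SE 0.07, adjusted p = 6.66e-07), with 9.61 and 9.63 in unstimulated cells. Btc differed by -0.30 (adjusted p = 0.0445) and did not pass when any 1 of the 4 arrays was left out (0.0863 to 0.281).

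**Figure D3:**
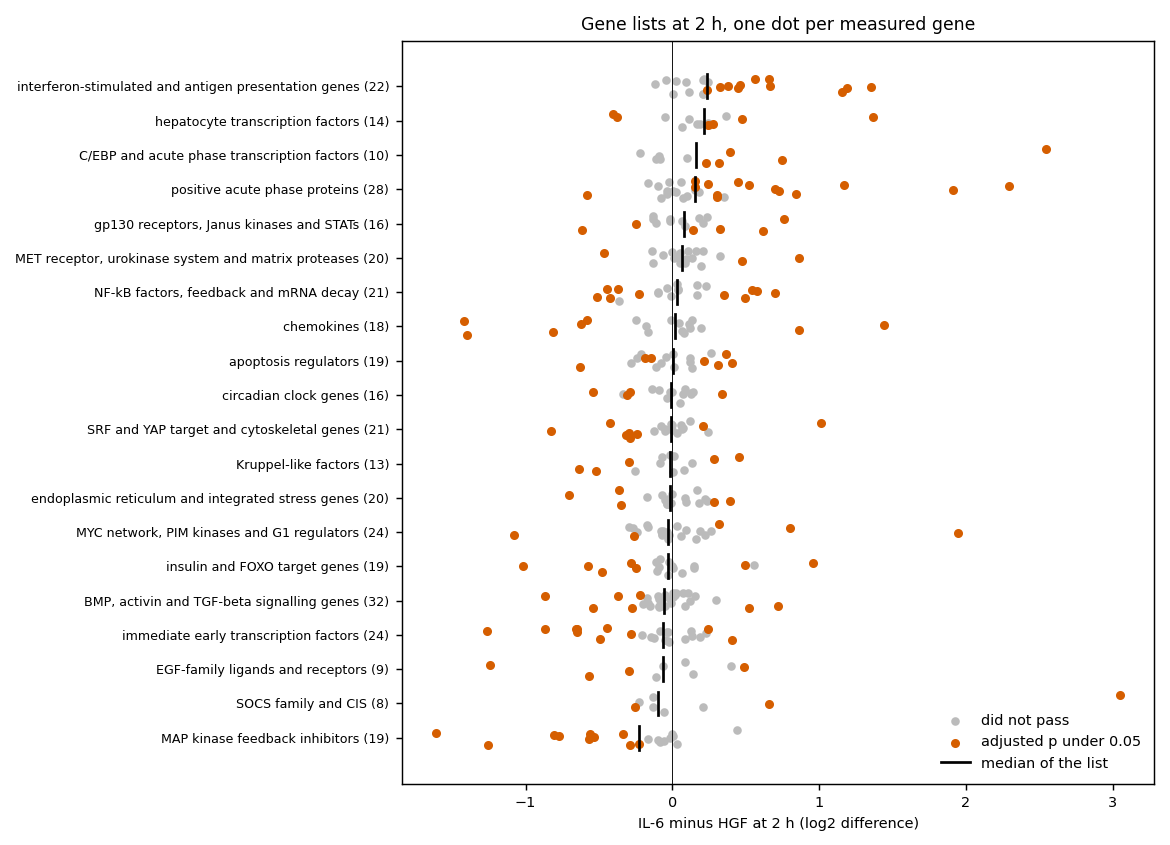
Difference between IL-6 and HGF at 2 h (horizontal axis, log2) for the measured genes of 20 gene lists, 1 dot per gene, coloured where the adjusted p was under 0.05, with a bar at the median of each list. The lists run from the interferon-stimulated genes at the top, with a median of 0.24, to the MAP kinase feedback inhibitors at the bottom, with a median of -0.23.

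The arrestin-domain genes Arrdc3 and Arrdc4 were among the largest IL-6-high differences at 2 h, and differed in where the combination arrays lay. Arrdc3 read 7.67 and 7.29 under IL-6, close to 7.54 and 7.47 without stimulus, and 5.26 and 4.99 under HGF. The cells with both factors, at 5.27 and 5.13, lay at the HGF level. The difference was 2.36 (SE 0.14, 5.14-fold, adjusted p = 4.85e-18). Arrdc4 read 7.48 and 7.54 under IL-6, 5.02 and 5.59 under HGF and 5.56 and 5.69 without stimulus, and the combination, at 7.47 and 7.20, lay near the IL-6 arrays (difference 2.21, SE 0.13, adjusted p = 2.35e-17). A second probe set of Arrdc4 gave 0.61.

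Insulin and FOXO target genes were called in 7 of 19 cases (36.8%, against 8.51% of all genes), 2 higher under IL-6 and 5 lower. Irs1, the insulin receptor substrate, read 7.06 and 6.97 under IL-6 and 8.02 and 8.05 under HGF, and the unstimulated arrays, 8.08 and 8.06, lay with HGF (difference -1.02, SE 0.09, 2.03-fold, adjusted p = 2.19e-12). Its relative Irs2 was 0.50 higher under IL-6 (SE 0.11, adjusted p = 0.00104, and 0.0698 without IL-6 replicate 2). Foxo1 differed by -0.57 (SE 0.10, adjusted p = 2.21e-05). Pck1, the key enzyme of gluconeogenesis, read 5.55 and 5.69 under IL-6 and 4.46 and 4.86 under HGF (difference 0.96, SE 0.27, adjusted p = 0.0154). Pck1 did not pass without HGF replicate 1 (0.199), IL-6 replicate 1 (0.061) or IL-6 replicate 2 (0.123), and its other probe sets gave -0.04 and 0.10. Igfbp1, an insulin-repressed secreted protein, read 13.13 and 13.22 under HGF against 12.90 and 12.89 under IL-6 (difference -0.28, adjusted p = 0.00327, and 0.097 without HGF replicate 2).

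Hepatocyte transcription factors were called in 6 of 14 cases (42.9%, against 8.51% of all genes), 4 higher under IL-6 and 2 lower, and 7 and 2 after quantile normalization. Onecut1, also known as HNF6, read 7.72 and 7.81 under IL-6, 6.30 and 6.49 under HGF and 6.91 and 6.93 without stimulus, with the groups on either side of that level (difference 1.37, SE 0.17, adjusted p = 2.91e-08). The forkhead genes went apart: Foxa2 was 0.47 higher under IL-6 (SE 0.05, adjusted p = 4.52e-09), while Foxa1 and Foxa3 were lower by 0.38 (adjusted p = 1.6e-06) and 0.41 (adjusted p = 0.000294). At 0.5 h none of the 14 was called, and 0.338% of all genes were.

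Cell cycle and survival genes gave mixed calls. Of 24 genes of the MYC network, PIM kinases and G1 regulators, 3 stood higher under IL-6 and 2 lower (20.8% called, against 8.51% of all genes). Gadd45g read 8.82 and 8.83 under IL-6 and 6.99 and 6.78 under HGF (difference 1.94, SE 0.13, adjusted p = 1.42e-15), and Pim3 was 0.80 higher (SE 0.06, adjusted p = 6.19e-15). Cdkn2b, which encodes the CDK4 and CDK6 inhibitor p15, read 6.59 and 6.72 under HGF and 5.37 and 5.77 under IL-6, on either side of 6.08 and 6.20 without stimulus (difference -1.08, SE 0.11, adjusted p = 7.02e-10). Myc again did not pass, at 9.79 and 9.79 under HGF and 9.71 and 9.73 under IL-6 (adjusted p = 0.667). Of 19 apoptosis regulators 4 stood higher under IL-6 and 3 lower (36.8% called). Pmaip1 differed by -0.63 (adjusted p = 0.00059) and Mcl1 by -0.18 (adjusted p = 0.00253, and 0.135 without HGF replicate 2 or 0.0525 without IL-6 replicate 2). Bcl2l11, which encodes BIM, was 0.41 higher (adjusted p = 0.00196), but not called without HGF replicate 1 (0.312) or IL-6 replicate 2 (0.0734).

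Cytoskeletal and matrix genes held differences in both directions. Of 21 SRF and YAP target and cytoskeletal genes, 2 stood higher under IL-6 and 6 lower (38.1% called, against 8.51% of all genes), and 3 and 3 after quantile normalization. Rhob, a small GTPase, read 10.20 and 10.22 under IL-6 and 9.20 and 9.20 under HGF, with 9.41 and 9.29 without stimulus (difference 1.01, SE 0.07, adjusted p = 9.91e-16). Ccn1 differed by -0.83 (SE 0.05, adjusted p = 3.98e-18), and its 3 other probe sets gave -0.83 to -0.77. Of 20 genes of the MET receptor, urokinase system and matrix proteases, 2 stood higher and 1 lower (15% called, near the 8.51% of all genes). The protease inhibitor Timp1 read 7.53 and 7.48 under IL-6 and 6.69 and 6.59 under HGF (difference 0.87, SE 0.10, adjusted p = 4.6e-09), the integrin Itga6 was 0.48 higher (adjusted p = 5.68e-08), and the urokinase receptor Plaur 0.47 lower (difference -0.47, SE 0.07, adjusted p = 2.02e-06).

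Among 32 BMP, activin and TGF-beta genes 2 stood higher under IL-6 and 5 lower (21.9% called, against 8.51% of all genes), and 2 inhibitors of the ID family parted: Id1 differed by 0.72 (SE 0.13, adjusted p = 0.000122) and Id3 by -0.87 (SE 0.10, adjusted p = 2.77e-09). Of 20 genes of endoplasmic reticulum and integrated stress, 2 stood higher and 3 lower (25% called). Xbp1, the factor of the unfolded protein response, was 0.40 higher under IL-6 (SE 0.05, adjusted p = 1.79e-08), whereas Chac1 and Herpud1 were lower by 0.70 (adjusted p = 9.15e-06) and 0.35 (adjusted p = 0.000268). The 13 Kruppel-like factors gave 2 and 3 calls, with Klf10 at -0.64 (adjusted p = 1.14e-05) and Klf16 at -0.52 (adjusted p = 1.66e-05). The 16 clock genes gave 1 and 3, with Per1 at -0.54 (adjusted p = 2.27e-05) and Rora at 0.34 (adjusted p = 0.000254).

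Some of the largest differences of 2 h belonged to no list. Slc10a6, a steroid sulphate transporter, read 7.77 and 7.90 under IL-6 and 6.16 and 5.78 under HGF, near 6.27 and 6.35 without stimulus, and was 1.86 higher (SE 0.18, adjusted p = 4.22e-11). The combination, at 6.61 and 6.68, lay nearer to HGF than to IL-6. On the HGF side stood Plk3, a stress-activated kinase (difference -1.22, SE 0.08, adjusted p = 1.75e-15), Rrad, a small GTPase (-1.12, SE 0.13, adjusted p = 1.05e-08), and Thbd, thrombomodulin (-1.10, SE 0.15, adjusted p = 4.15e-07). Plk3 read 8.83 and 8.60 under HGF and 7.50 and 7.50 under IL-6, the latter below the unstimulated 8.44 and 8.37. Ptgs2, the inducible cyclooxygenase, read 4.54 and 4.48 under HGF and 3.31 and 3.31 under IL-6 (difference -1.20, SE 0.28, adjusted p = 0.00315). Its IL-6 level lay under the 40th percentile of the arrays, and a second probe set gave -0.10. Ivl, the gene of involucrin, read 8.98 and 9.03 against 7.69 and 7.67 (difference -1.32, SE 0.27, adjusted p = 0.000485).

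Between the hours, most separation was gained and some was lost. Of the genes called, 31 were called at both hours, 18 at 0.5 h only and 1204 at 2 h only. Of the 31, 14 stood higher under IL-6 at both hours, 14 higher under HGF at both, and 3 changed sides: Jun, Fgf21 and Adamts1. The 2 h call of Adamts1 was lost with each array of that hour left out, at differences of 0.19 to 0.24. Its 0.5 h call was lost without HGF replicate 1 (-0.27), HGF replicate 2 (-0.26) or IL-6 replicate 1 (-0.20). The change of the difference itself passed for 302 genes (2.08%), rising for 163 (1.12%) and falling for 139 (0.958%). Jun went from -0.44 at 0.5 h to 0.41 at 2 h (change 0.85, SE 0.08, adjusted p = 6.18e-11). Its HGF arrays read 10.46 and 10.48 and then 9.75 and 9.79, and its IL-6 arrays 9.99 and 10.07 and then 10.17 and 10.19. Fgf21 went from -0.55 to 0.47 (change 1.01, SE 0.18, adjusted p = 0.000227), though its call at 0.5 h was lost with each of the 4 arrays left out (0.115 to 0.327) and its call at 2 h without HGF replicate 1 (0.169) or IL-6 replicate 2 (0.137). Zfp36 and Gadd45b lost their IL-6 lead, by 0.89 (change -0.89, SE 0.11, adjusted p = 3.49e-07) and 0.78 (change -0.78, SE 0.11, adjusted p = 1.04e-06).

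**Figure D4:**
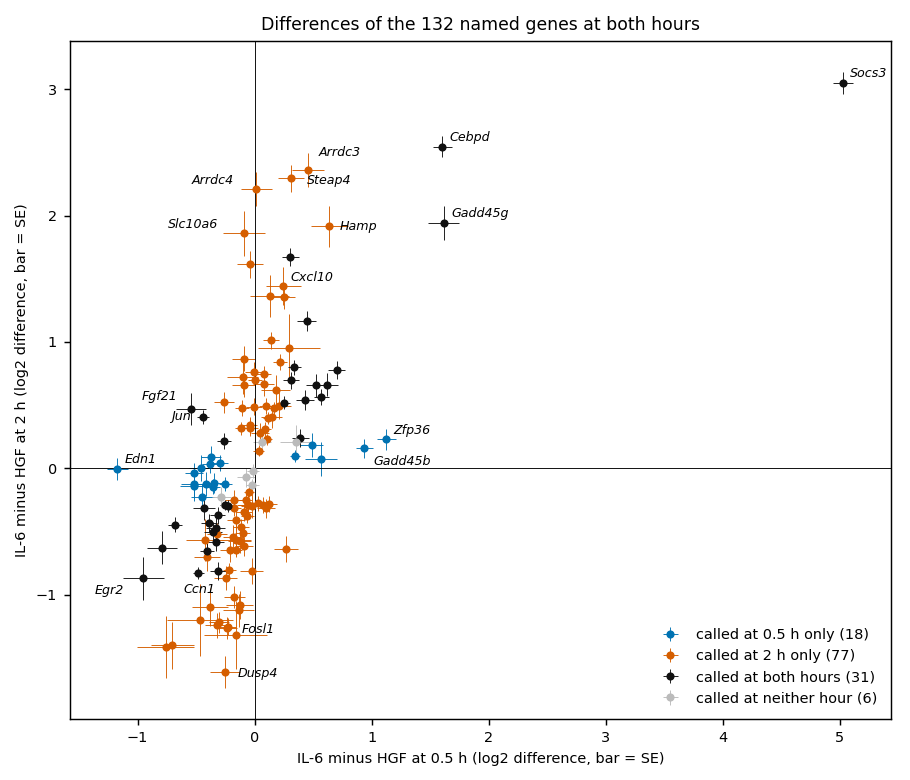
IL-6 minus HGF at 0.5 h (horizontal axis) against the same difference at 2 h (vertical axis), both log2 with SE bars, for the 132 named genes, coloured by the hours at which they were called. Socs3 lies far to the right at 5.03 and 3.05, most genes called at 2 h only lie along the vertical axis, and Edn1, at -1.17 and -0.00, lies on the horizontal axis.

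The 4 h arrays gave the same contrast for the named genes. Their levels did not enter the contrasts at 0.5 and 2 h, but their spread entered the shared fit. Of the 108 named genes called at 2 h, 83 were called at 4 h in the same direction, 4 in the opposite direction and 21 were not called. Most named genes were chosen by size or p-value at 0.5 or 2 h. The share over all genes called at 2 h was not taken, so these counts describe the named genes only. The 4 that turned were Cxcl10, Ccng2, Chac1 and Herpud1. Chac1 went from -0.70 at 2 h to 1.01 at 4 h (SE 0.11, adjusted p = 1.39e-09) and Herpud1 from -0.35 to 1.00 (SE 0.07, adjusted p = 5.24e-16). Socs3 stood 3.55 higher under IL-6 at 4 h, Cebpd 2.58, Hamp 2.79 and Arrdc4 2.69. Atf3, which had been higher under HGF at 0.5 h (-0.38, adjusted p = 0.0248), stood 1.05 higher under IL-6 at 4 h (SE 0.09, adjusted p = 1.53e-13). The difference of Dusp4 was -1.49 and that of Dusp6 -0.998 at 4 h.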

How the data were processed

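RNA of 60 hepatocyte cultures was labelled with biotin (One-Cycle protocol) and hybridised to Affymetrix mouse arrays, per the labels. The authors deposited log2 intensities of 45101 probe sets. How these were summarised and scaled is not given in the sources used. Array medians lay between 4.88 and 4.97, so values were used as deposited. Probe sets with 1 symbol in the array's probe table (34958) gave 18194 genes. Probe sets with several symbols (932) or not listed with a gene (9211) were left out. Each gene was taken as its probe set with the highest mean and was tested if 2 or more arrays had it over their own 40th percentile (14513 genes).

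A linear model with 1 mean for each of 29 groups was fitted to all arrays in R 4.3.3, using limma 3.58.1, whose eBayes step followed the mean-variance trend and had 31 residual degrees of freedom. The contrasts were IL-6 minus HGF at 0.5, 2 and 4 h, its change from 0.5 to 2 h, and an F-test over 0.5 and 2 h. P-values were Benjamini-Hochberg adjusted over all genes, and called means under 0.05. The 26 gene lists (459 genes, 434 on the array) and the members were chosen with earlier results of these data known, and are described by counts and medians only. Named genes are the 12 largest differences in each direction and hour among genes called, at least 1.5-fold and with arrays that do not overlap, the 6 largest changes each way, the 4 smallest p-values of each list and 25 fixed genes. All 49 genes called at 0.5 h were added after their values were seen. No arrays held identical values.

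Promoter windows are those of RefSeq, and 11639 of the tested genes have one. On simulated data the fit recovered 26 of 50 genes at 1.3-fold, 45 of 50 at 1.5-fold and 50 of 50 at 2-fold at each hour. It called 14 (0.5 h) and 13 (2 h) of 14313 unchanged genes. The simulated noise was drawn separately for each gene and array from the fitted spread. It held no deviation shared by the genes of an array, so these rates do not cover errors of that kind. The number of arrays limits the precision. Alternatives were quantile normalization, no filter, a 60th percentile filter, the mean over probe sets, a fit on the 8 arrays, other variance models, the replicate number as a block, a 2-fold minimum and leaving out each array. Near-identical genes can share signal under 1 name.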

Additional observations from a re-analysis of the deposited data

Results flagged for a closer look

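The difference between IL-6 and HGF itself changed between 0.5 and 2 h for many named genes. The test was that of the change in limma (adjusted p under 0.05 over all genes). Of the genes that passed, 30 are given here: those named for the size of their change and those called at 0.5 h. Other named genes passed too and are not listed, among them Hamp, Cxcl10, Hbegf and Plk3. Only the 30 are described in this section. The values are log2 changes of the difference. Genes higher under IL-6 at 2 h whose difference rose were Arrdc4 by 2.19, Steap4 by 1.99, Slc10a6 by 1.95, Arrdc3 by 1.91, Il1r1 by 1.66, Tifa by 1.37, Cebpd by 0.94, Fga by 0.72, Pim3 by 0.46, Fgb by 0.39 and Pnrc1 by 0.26. Others had a smaller lead at 2 h than at 0.5 h: Socs3 (-1.98), Zfp36 (-0.89), Gadd45b (-0.78) and Bhlhe40 (-0.25). The changes of Bhlhe40, Pnrc1 and Fgb were no longer called when certain single arrays were left out. Without IL-6 replicate 1 of 2 h Bhlhe40 gave -0.22, and without HGF replicate 1 of 2 h Pnrc1 gave 0.14. With the mean over probe sets the change of Pnrc1 was -0.043. Fgb gave 0.35 without IL-6 replicate 2 of 0.5 h.

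On the HGF side the difference widened for Dusp4 (-1.36), Dusp6 (-1.03), Fosl1 (-1.03), Rrad (-0.99), Cdkn2b (-0.95), Fzd5 (-0.50) and Ccn1 (-0.35). For Ccn1 this held for the probe set used. Its 3 other probe sets gave -1.36 to -0.64 at 0.5 h and -0.83 to -0.77 at 2 h. The mean over probe sets gave a change of 0.15 for Ccn1. It narrowed or turned for Edn1 (1.17), Fgf21 (1.01), Jun (0.85), Ddit4 (0.48), Adamts1 (0.48), Atf3 (0.47), Kifap3 (0.41) and Rps6ka3 (0.34). The changes of Atf3, Kifap3, Rps6ka3 and Ddit4 were no longer called when certain single arrays were left out. Without HGF replicate 1 of 2 h Ddit4 gave 0.42 and Atf3 0.44. Rps6ka3 gave 0.23 without IL-6 replicate 1 of 0.5 h, and Kifap3 0.36 without HGF replicate 2 of 2 h. The bioB control, which lay higher under HGF at 0.5 h and lower at 2 h, changes between the hours too, and its part in these changes was not tested.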

How the results depend on the processing

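Leaving out each array in turn gave 23 to 153 genes at 0.5 h (14 to 33 higher under IL-6, 8 to 120 lower), 638 to 873 at 2 h (201 to 271 and 406 to 605), 667 to 1417 for either hour by the F-test (1214 with all arrays), and for the change 228 to 270 (87 to 124 falling, 122 to 146 rising). The highest count at 0.5 h came without IL-6 replicate 2 and the lowest without IL-6 replicate 1. A 2-fold minimum left 5, 36, 24 and 38 genes at 0.5 h, at 2 h, for the change and for either hour, by construction of that limit. Taking the mean over probe sets reversed Slc39a6 at 0.5 h (0.086) and the changes of Ccn1 (0.15) and Pnrc1 (-0.043), and the cause was not tested. The other alternatives kept every count of called genes within 1.5 times, while quantile normalization moved the directional split as given above. With the replicate number as a block, 55 genes were called at 0.5 h, and at 2 h 399 higher and 852 lower. Same-numbered IL-6 and HGF arrays deviated from their group means with a correlation of 0.14 at 0.5 h and -0.09 at 2 h, so the numbers were taken only as names.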
